A study of Homo sapiens with 8 samples.

Results

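The enzymes described here make or use asparagine, glutamine, glutamate, alanine, aspartate and proline. They were listed by gene symbol as ASNS, GLUL, GLUD1, GPT2, GOT1, GOT2, PYCR1, ALDH18A1, PCK2 and IDH1. Of the 10 genes, 9 were found by symbol among the 16782 genes of the deposited table, and PYCR1 was not analysed here. The RNA was that of CAKI1, an established line of human renal carcinoma cells, serum starved for 24 h before stimulation. In 4 samples the cells then received iron-loaded (holo) lipocalin-2, hLcn-2, at 5 µg/mL for 24 h, and 4 unstimulated samples served as controls. Lipocalin-2 is a secreted protein that carries iron bound to small chelators. The libraries read only the 3′ end of each transcript and carried unique molecular identifiers (UMI), so that PCR copies of 1 molecule are counted once. The samples are numbered 1 to 4 in each group, and nothing in the labels says that they came from separate cultures, so p-values measure the spread between these samples, which may be technical.

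Glutamate is the central nitrogen donor of the cell. Aminotransferases pass its amino group to oxaloacetate or pyruvate and give aspartate and alanine, with 2-oxoglutarate as the other product. Asparagine synthetase takes an amide group from glutamine, and proline is made from the carbon chain of glutamate. Several of these enzymes are known targets of ATF4, the transcription factor that is translated during the integrated stress response, and the amino acid response element of the ASNS promoter is its textbook example.

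Reads recovered from the deposited values, counted in genes after UMI merging, came to 1501563 to 13953090 per library, with the fewest in control 4 and hLcn-2 3. All values are normalized counts, which lie on a scale of reads per common library size (CPM). The renal lineage factor PAX8 was present at normalized counts of 201 to 245 and the epithelial keratin KRT18 at 62.7 to 132.6, whereas PAX2 (1.32 to 5.29) and the fibroblast collagen COL1A1 (2.47 to 6.58) were low in every library. Differences were tested with limma on log2(normalized count + 1) for 15593 genes, and log2 fold changes are hLcn-2 over control on this scale, which understates the change of genes with few reads. Same-numbered samples deviated together from their group means, so each test was repeated with the sample number as a replicate block, and the blocked value is given where it changed a call. Fewer cells that express a gene and less RNA per cell cannot be told apart in such bulk samples.

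Asparagine synthetase, the alanine aminotransferase of mitochondria and cytosolic isocitrate dehydrogenase were the enzyme genes higher in hLcn-2-treated cells in edgeR and DESeq2 once the replicate block was used, and the alanine aminotransferase alone in limma. ASNS was 1.74-fold, GPT2 1.49-fold and IDH1 1.32-fold higher in hLcn-2-treated cells by the ratio of means (n = 4 in each group). Both aspartate aminotransferases and glutamate dehydrogenase showed small differences of either sign. Without the replicate block none of the 9 genes passed an adjusted p-value of 0.05 (limma, Benjamini-Hochberg adjustment over all genes tested), and 3 of them had an unadjusted p-value under 0.05. Neither did any of the 15593 genes (0%), of which 355 had an unadjusted p-value under 0.05. EdgeR and DESeq2 without the block called 0 genes as well, with 324 and 284 genes at an unadjusted p-value under 0.05.

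With the replicate block, limma called 1 of the 9 genes, GPT2, against 0.218% of all genes called higher and 0.0641% called lower. EdgeR's quasi-likelihood test on the recovered reads with the block called 3, ASNS, GPT2 and IDH1, against 1.12% of all genes called higher. DESeq2 with the block called the same 3 genes, against 0.866%. At an unadjusted p-value under 0.05 in limma with the block, 6 of the 9 genes were higher, where 6.65% of all genes were, and none was lower, where 5.53% of all genes were. These shares are descriptions, since the genes were chosen with earlier results of these data known.

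**Figure D1:**
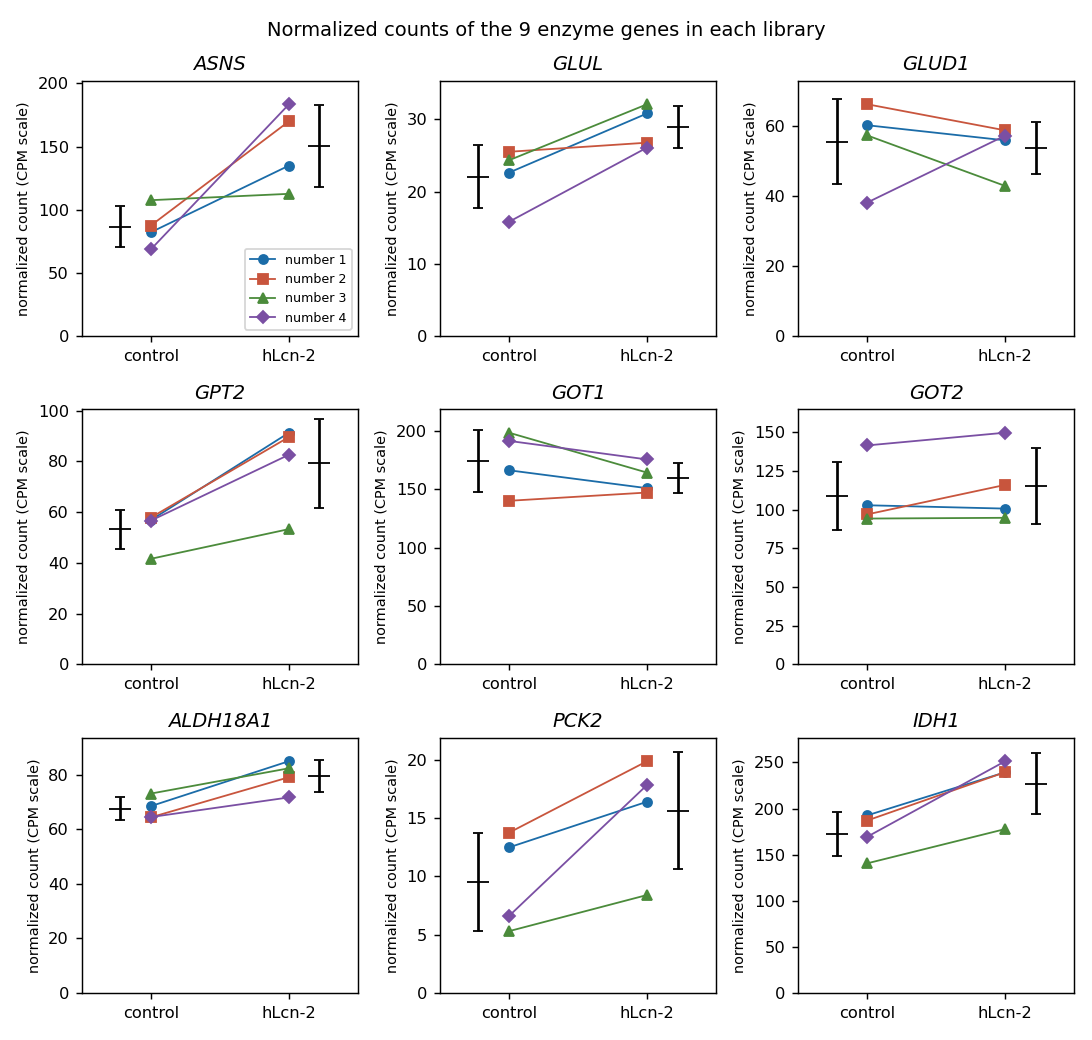
Normalized counts (vertical axes, CPM scale, from 0) of the 9 enzyme genes in each control and hLcn-2 library, with lines that join same-numbered samples and black bars for the mean ± SD (n = 4). ASNS and GLUL show no overlap between the groups, and sample number 3 is low in both groups for GPT2, IDH1 and PCK2.

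ASNS, which makes asparagine from aspartate and glutamine, lies on the minus strand at chr7:97851677-97872542 (GRCh38, GENCODE 44). Its normalized counts were 82.1, 87.4, 108 and 68.5 in controls 1 to 4 and 135, 170, 113 and 184 in hLcn-2 samples 1 to 4. Every hLcn-2 sample was thus above every control, although hLcn-2 3 lay only just above control 3. The means were 86.4 ± 16.2 (SD, n = 4) in controls and 150.3 ± 32.4 with hLcn-2. The log2 fold change was 0.78 with a standard error of 0.18, and the exact permutation test gave p = 0.0286 (two-sided), the smallest value that 70 regroupings allow. Limma gave adjusted p-values of 0.9999 unblocked and 0.0569 blocked, whereas edgeR and DESeq2 with the block gave 0.00557 and 0.000187. The differences within pairs ranged from 0.07 in pair 3 to 1.41 in pair 4 on the log2 scale. In the last exon of ASNS, where 3′ libraries place their reads, the annotation also holds a long non-coding RNA of the same strand. The extent of the overlap was not measured, and how reads falling on both genes were counted is not known. The ASNS counts may therefore be affected.

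Promoter sequence is shown for ASNS because its response element to amino acid shortage is well described. The same search also matched windows of GOT1, IDH1 and GOT2, of which those of GOT1 and IDH1 are shown. The match in GOT2 lay 56 bases before the RefSeq start. RefSeq windows of GRCh38.p14, from 250 bases before to 50 bases after a gene's start, were present for 8 of the 9 genes. GPT2 had none. Both strands were searched for TGATGNAA (the core of the C/EBP-ATF response element), GTTACA (the second nutrient-sensing element, NSRE-2) and TGACNNNGC (the core of the antioxidant response element bound by NRF2). The stretches run 5′ to 3′ on the strand of the gene, with the matches in capitals.
ASNS, chr7:97872449-97872478, minus strand: caTGATGAAActtcccgcacgcGTTACAgg
GOT1, chr10:99430804-99430833, minus strand: aattgcattggTTGCATCAttctcggcagc
IDH1, chr2:208255195-208255224, minus strand: cccctctcgcTGACTCCGCccatcccacgg
In ASNS the first element began 68 bases and the second 48 bases before the RefSeq start. The match in GOT1 lay on the opposite strand, 198 bases before its RefSeq start, and the one in IDH1 143 bases before its RefSeq start. These starts differ from the ends of the GENCODE spans, so the ASNS and IDH1 stretches lie inside the gene spans given here. Of all 35116 windows, 3.62% held TGATGNAA, 6.66% held GTTACA and 13.3% held TGACNNNGC, the last also present in GOT2. ASNS matched both nutrient elements and had a log2 fold change of 0.78, whereas GOT1 matched only the first and had -0.12. PCK2 matched neither and had 0.69. Whether the matches bear on the fold changes was not tested. A match is a description of letters and does not show that a factor was bound.

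GLUL, glutamine synthetase, adds ammonia to glutamate (chr1:182378098-182392206, minus strand). It was counted at 22.6, 25.5, 24.3 and 15.8 in the controls and at 30.8, 26.8, 32.1 and 26.1 in hLcn-2-treated cells. The groups did not overlap, but control 2 and hLcn-2 4 differed by less than the spread of either group. The means were 22.1 ± 4.34 and 28.9 ± 2.96 (SD, n = 4). The log2 fold change was 0.39 ± 0.18 (SE), with an exact permutation p = 0.0286 and 0.9999 as the adjusted p-value of limma. Without control 4 the log2 fold change was 0.25. No fit to all 8 samples called GLUL, with 0.240 in limma, 0.188 in edgeR and 0.355 in DESeq2 as adjusted p-values with the block. Groups did not overlap for 2 of the 9 genes, ASNS and GLUL, both higher, where 0.891% of all genes were higher and 0.988% lower without overlap.

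GLUD1, glutamate dehydrogenase of mitochondria, converts glutamate into 2-oxoglutarate and ammonia and lies at chr10:87050202-87094843 (minus strand). Its normalized counts were 60.4, 66.4, 57.5 and 38.2 in controls and 56.0, 58.9, 43.0 and 57.4 with hLcn-2. The groups overlapped widely, and pairs 1 to 3 were lower and pair 4 higher. The log2 fold change of -0.03 ± 0.19 (SE) was smaller than the spread between replicates.

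GPT2, the mitochondrial alanine aminotransferase, makes alanine and 2-oxoglutarate from pyruvate and glutamate (chr16:46884362-46931289, plus strand). Its normalized counts were 56.8, 57.8, 41.6 and 56.6 in controls and 91.3, 89.6, 53.3 and 82.6 with hLcn-2. Sample 3 was the lowest of both groups, and hLcn-2 3 fell below controls 1, 2 and 4, which alone made the groups overlap. All 4 pairs were higher with hLcn-2, by 0.35 to 0.67 on the log2 scale. The log2 fold change was 0.55 with a standard error of 0.19, or 0.09 with the block, and the exact permutation test, which takes no account of the pairs, gave p = 0.114. GPT2 rose in limma with the block (adjusted p = 0.0373), in edgeR with the block (0.00458) and in DESeq2 with the block (0.00101), but not in limma without it (0.9999). Limma with the block no longer called it without pair 1, 2 or 3, and called 0 of the 9 genes in each of those fits. The same fits called only 14, 3 and 0 of all genes, and the log2 fold change of GPT2 in them was 0.50, 0.52 and 0.61. The study itself lists GPT2 among the genes it chose on these samples, so its direction is not independent evidence.

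The aspartate aminotransferases GOT1, of the cytosol, and GOT2, of mitochondria, carry out the same reaction on either side of the malate-aspartate shuttle. GOT1 (chr10:99396870-99430624, minus strand) was counted at 166, 140, 199 and 192 in controls and at 151, 147, 164 and 176 with hLcn-2, a log2 fold change of -0.12 ± 0.14 (SE). GOT2 (chr16:58707131-58734342, minus strand) was counted at 103, 97.0, 94.3 and 142 in controls and at 101, 116, 94.8 and 150 with hLcn-2, a log2 fold change of 0.08 ± 0.18 (SE). For both genes the groups overlapped, the exact permutation p-values were 0.371 and 0.629, and no fit to all 8 samples called either. The log2 ratio GOT1/GOT2 was lower with hLcn-2 in all 4 pairs, by 0.19 on average from 0.68 ± 0.28 in controls to 0.48 ± 0.25 (SD, n = 4), with an exact permutation p = 0.371 and the same value after adjustment over the 2 ratios tested. Without control 3 the difference was -0.066, and without hLcn-2 3 it was -0.30.

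ALDH18A1 carries out the first steps from glutamate to proline and ornithine (chr10:95605941-95656711, minus strand). It was counted at 68.5, 64.4, 73.2 and 64.5 in controls and at 85.1, 79.2, 82.4 and 71.8 with hLcn-2. Of the hLcn-2 samples, hLcn-2 4 alone lay below a control, control 3. The log2 fold change was 0.23 ± 0.12 (SE), higher in all 4 pairs by 0.15 to 0.31. The exact permutation p was 0.0571, and the adjusted p-values with the block were 0.308 in limma and 0.197 in edgeR.

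PCK2, the mitochondrial phosphoenolpyruvate carboxykinase, turns oxaloacetate into phosphoenolpyruvate (chr14:24094053-24110598, plus strand). Its normalized counts of 12.5, 13.7, 5.29 and 6.58 in controls and 16.4, 19.9, 8.39 and 17.8 with hLcn-2 rested on 10 to 184 reads. The lowest numbers of reads were 10 in control 4 and 17 in hLcn-2 3. All 4 pairs were higher, by 0.37 to 1.31, and the widest difference was that of pair 4, which holds the control with 10 reads. The log2 fold change was 0.69 ± 0.33 (SE), with an exact permutation p = 0.171 and adjusted p-values with the block of 0.139 in limma, 0.0674 in edgeR and 0.140 in DESeq2.

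IDH1, the cytosolic isocitrate dehydrogenase, makes 2-oxoglutarate and NADPH (chr2:208236229-208266074, minus strand). It was counted at 192, 187, 140 and 169 in controls and at 239, 239, 178 and 251 with hLcn-2. As for GPT2, sample 3 was the lowest of both groups, and hLcn-2 3 alone overlapped the controls. The 4 pairs were higher by 0.31 to 0.57, and the log2 fold change was 0.39 ± 0.15 (SE). IDH1 passed in edgeR (adjusted p = 0.0171) and DESeq2 (0.00770) with the block, but not in limma with it (0.0564) or without it (0.9999). The exact permutation p was 0.0857. The log2 ratio of IDH1 to IDH2, the mitochondrial enzyme of the same reaction, was 0.23 ± 0.45 in controls and 0.75 ± 0.49 with hLcn-2 (SD, n = 4), higher in 4 of 4 pairs, with an exact permutation p = 0.20 and 0.371 after adjustment over the 2 ratios. IDH2 alone had a log2 fold change of -0.13.

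**Figure D2:**
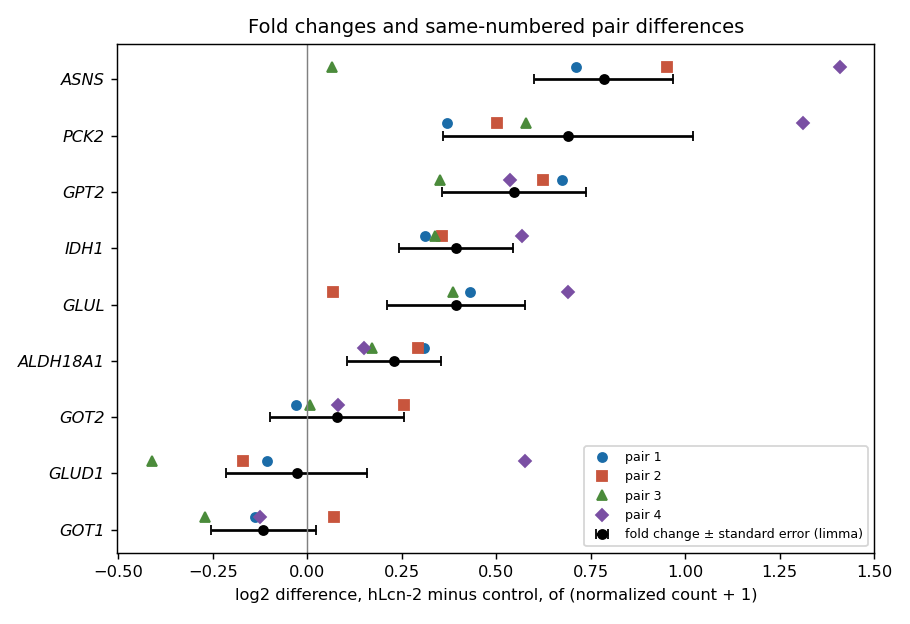
Log2 differences, hLcn-2 minus control, of the 9 enzyme genes (horizontal axis, log2 of normalized count + 1): coloured points are the 4 same-numbered pairs, black points with bars the limma fold change ± standard error. For 6 genes, from ASNS to ALDH18A1, all 4 pairs lie above 0, and for GOT2, GLUD1 and GOT1 they lie on both sides.

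The 9 genes had a median log2 fold change of 0.39, whereas that of all genes tested was 0.00. In the single pairs their median was 0.31, 0.29, 0.17 and 0.57. All 4 pairs were higher for 6 of the 9 genes, where 9.93% of all genes were, and lower for none, where 10.9% of all genes were. The shallow library hLcn-2 3 was the lowest of its group for 6 of the 9 genes and control 3 for 4 of them. The part of depth in this was not tested.

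The other enzymes and carriers of the same pathways were drawn up by function in 6 lists, of which 61 of 72 genes reported here were tested. Their median log2 fold change was -0.01, with all 4 pairs higher for 9 of the 61 genes and lower for 6, where 9.93% and 10.9% of all genes were. Limma without the block called none of them, with 1 gene at an unadjusted p-value under 0.05. Limma with the block called PSAT1 alone, edgeR with the block PSAT1, OAT and SLC1A5, and DESeq2 with the block PSAT1 and SLC1A5, all higher.

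The aminotransferase list had the highest median of the 6 lists, 0.24 over 7 tested genes. PSAT1, the aminotransferase of serine synthesis that uses glutamate, was counted at 121, 145, 75.1 and 120.5 in controls and at 190, 206, 97.3 and 170 with hLcn-2. Its log2 fold change was 0.50 ± 0.25 (SE), with adjusted p-values in limma of 0.0317 blocked and 0.9999 unblocked. PSAT1 is also among the genes that the study chose from this experiment. OAT, which joins ornithine to proline and glutamate metabolism, had a log2 fold change of 0.44 (edgeR with the block, adjusted p = 0.0368), and BCAT1, a branched-chain aminotransferase, one of 0.24 (edgeR with the block, 0.108).

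The glutamine and glutamate list (15 tested) had a median of -0.06. In all 4 pairs 2 of its genes were higher and 1 lower, where 9.93% and 10.9% of all genes were. GFPT1 and GFPT2, which pass the amide group of glutamine to hexosamines, had log2 fold changes of 0.19 and, at 5 to 99 reads, 0.67, and CTPS1, CTP synthase, one of -0.30. None of them passed in limma or edgeR with the block.

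No gene of the asparagine, aspartate and arginine list (11 tested, median -0.08) was called in a fit to all 8 samples. The asparaginase ASRGL1 had a log2 fold change of -0.35, the adenylosuccinate synthase ADSS1 -0.38 and the aspartoacylase ASPA -0.19. In the proline list (7 tested, median 0.07) no gene was called either, with log2 fold changes of 0.26 and 0.31 for the prolyl hydroxylase subunits P4HA1 and P4HA2 and of 0.23 for ALDH4A1, which takes part in the breakdown of proline to glutamate. Among 13 tested genes around oxaloacetate, isocitrate and 2-oxoglutarate (median -0.06), none was called, and the malic enzyme ME2 (0.38), the cytosolic aconitase ACO1 (0.21) and the mitochondrial isocitrate dehydrogenase subunit IDH3A (-0.48) had the smallest p-values. Of the 8 shuttle and carrier genes (median 0.02), the glutamine transporter SLC1A5 had a log2 fold change of 0.42 ± 0.20 (SE), with adjusted p-values with the block of 0.0552 in limma and 0.0134 in edgeR. The carriers SLC25A18 (-0.39, at 2 to 20 reads) and SLC25A11 (-0.15) were not called.

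**Figure D3:**
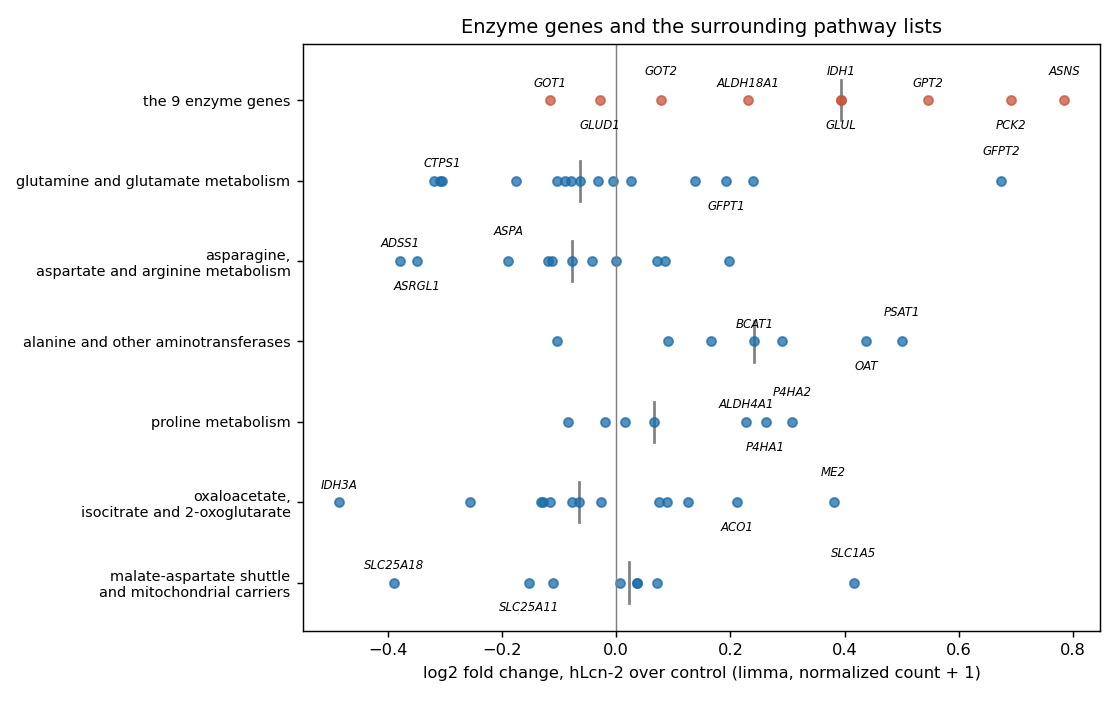
Log2 fold changes, hLcn-2 over control (horizontal axis, limma on log2 of normalized count + 1), of the 9 enzyme genes and of the tested genes of 6 pathway lists, with grey bars at the medians. The 9 enzyme genes have a median of 0.39, and the list medians lie between -0.08 and 0.24.

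Stress response genes were read beside the enzymes. CHAC1, a glutathione-degrading ATF4 target, had a log2 fold change of 0.71 and CEBPB, a partner of ATF4, one of 0.56, with adjusted p-values in limma with the block of 0.0206 and 0.0317. ATF4 itself had 0.19, TRIB3 0.16, DDIT3 0.36 and ATF3 -0.06, and none of them passed in limma, edgeR or DESeq2 with the block. CHAC1 and CEBPB are likewise among the genes that the study chose from this experiment.

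The genes most like ASNS across the 8 samples were sought by the root mean square difference of their centred log2 values, over 9005 genes with a mean normalized count of at least 10. The nearest were SLC7A5, a transporter of large neutral amino acids (0.14), PDGFA, a growth factor chain (0.16), FMC1, an assembly factor of mitochondrial ATP synthase (0.18), ILF2, an RNA-binding protein (0.19), and INHBE, an activin subunit (0.23), against a median of 0.52 over the genes compared. SLC7A5, PDGFA, FMC1 and INHBE were higher in 4 of 4 pairs and ILF2 in 3. Of all genes, 9.93% were higher in all 4 pairs. The nearest genes were chosen for likeness to ASNS over these same samples, and ASNS was higher in all 4 pairs. Their directions thus largely follow from the choice. Of the other 8 enzyme genes, IDH1 came 99th and GPT2 135th in this order, and GOT1 was the farthest, at 5211. Among the nearest genes, FMC1 and INHBE are also on the list that the study chose from this experiment. The measure describes likeness over 8 libraries that share depth and pairing.

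**Figure D4:**
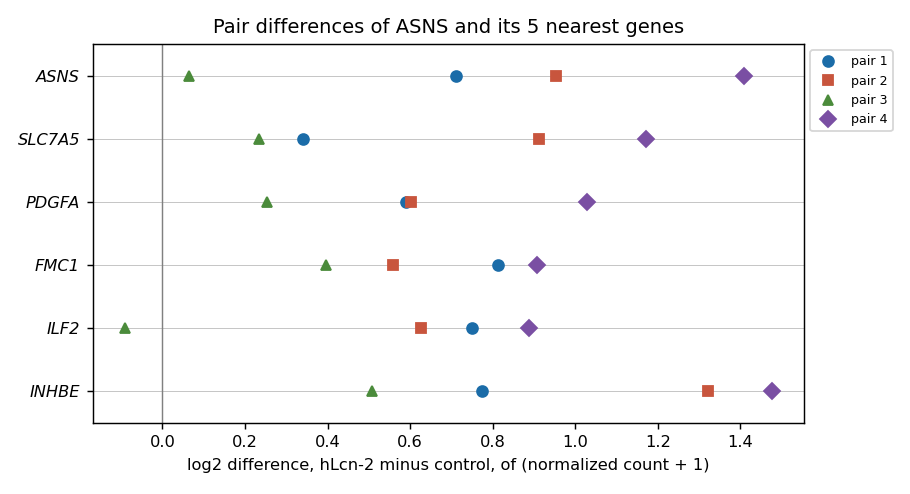
Log2 differences, hLcn-2 minus control (horizontal axis, log2 of normalized count + 1), of ASNS and the 5 genes nearest to it in the 4 same-numbered pairs. Pair 4 shows the widest difference for all 6 genes and pair 3 a narrow one, which for ILF2 lies at -0.09. The 5 genes were chosen for their likeness to ASNS over these same samples.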

How the data were processed

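Libraries were made with the QuantSeq 3′ kit with UMI. The authors used STAR for alignment to GRCh38, merged reads sharing a UMI, and took gene counts from HTSeq. Whether strand was used is not given in the sources used here. The deposited values are normalized counts, a scaled signal. Divided by the worth of 1 read, 100% of 134256 values came out whole. The tolerance was 0.02 reads. It widened in proportion to the count for genes with many reads, where the check was therefore weak. One value with a decimal comma was read as a decimal point.

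Limma 3.58.1 (R 4.3.3, intensity trend, two-sided) was fitted on log2(normalized count + 1) for the 15593 genes reaching 1 CPM in 2 or more samples. EdgeR 4.0.16 and DESeq2 1.42.0 were run on the recovered reads. Deviations of same-numbered samples correlated at 0.31 to 0.61 over genes, so the label numbers were taken to pair the samples. UMI counts leave counting error, largest in the libraries with few reads.

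The enzymes, lists, motifs and tests were chosen with earlier results of these data known. Named are all 10 enzymes, partners in the ratios, 6 stress genes, cell type markers, the 5 genes nearest to ASNS, and up to 3 genes per list, those called by limma first and then those with the smallest p-value with the block. Ratios with GPT, PCK1 and PYCR1 were not analysed here, and 2 genes of the lists, with the ratios that need them, are not reported here. Alternatives were other pseudocounts (0.1, 5), filters, scalings, no trend, the block, other tools and left-out samples, 30 settings in all. Combinations of the block with another scaling, and of edgeR with left-out pairs, were added after seeing the data.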

Additional observations from a re-analysis of the deposited data

Results flagged for a closer look

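A sample far from the other 3 of its group was found in 5 of 94 groups of 4, the controls and the hLcn-2 samples of each named gene and cell type marker analysed, where chance gives about 1 in 20, or 4.7. GPT2 in control 3 had a normalized count of 41.6, and the nearest control had 56.6. IDH1 in hLcn-2 3 had 178, and the nearest hLcn-2 sample had 239. ALDH4A1 in control 3 had 34.4, and the nearest control had 14.8. PAX2 in control 3 had 5.29, and the nearest control had 1.80. COL1A1 in hLcn-2 3 had 2.47, from 5 reads, and the nearest hLcn-2 sample had 3.91. All 5 values belong to sample number 3, which was the lowest of both groups for GPT2 and IDH1 and the highest of the controls for ALDH4A1.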

How the results depend on the processing

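All calls depended on the replicate block: without it limma, edgeR, DESeq2 and every other pseudocount, filter, scaling and trend setting called 0 genes. With it, limma called 44 genes, 1 of the 9 enzymes and 1 pathway gene, edgeR 233, 3 and 3, and DESeq2 181, 3 and 2. With the block and CPM of column totals the counts were 36, 1 and 1, and with DESeq2 size factors 43, 1 and 1. Leaving out samples or pairs gave 0 to 221 genes, 0 to 3 enzymes and 0 to 3 pathway genes. In limma with the block 0 of the 9 enzymes remained called without pair 1, 2 or 3, and GPT2 did without pair 4. Those fits, without pair 1, 2, 3 and 4 in turn, called 14, 3, 0 and 58 of all genes. In edgeR with the block ASNS and GPT2 were called without pair 1 or 3, none without pair 2, and ASNS, GPT2 and IDH1 without pair 4. The edgeR fits called 66, 56, 125 and 221 of all genes in the same order. The median of the 9 enzymes kept its sign in all 30 settings, from 0.25 to 0.44. GLUD1 moved between -0.23 and 0.10 and GOT2 between -0.054 and 0.21 with samples left out, and both changed sign. GLUL lay between 0.25 and 0.50 and GOT1 between -0.22 and -0.049, the weakest without control 4 and without control 3, and the log2 ratio GOT1/GOT2 between -0.30 and -0.066. The cause was not tested. The block changed calls of ASNS, GPT2 and IDH1 only, and none of GLUL, GLUD1, GOT1, GOT2, ALDH18A1 or PCK2. The median log2 fold change of all genes was 0.00 as deposited, -0.03 with CPM of column totals and 0.00 with DESeq2 size factors. Among the 9 enzymes PCK2 had the fewest reads, 10 in control 4.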
